A study of Mus musculus with 4 samples.

Results

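Nuclear genes of oxidative phosphorylation were followed in EGFP+ cells recovered from the bone marrow of transplanted mice. The members were chosen by a rule on gene symbols, with earlier results of these data known. It took every row of the deposited tables that begins with Nduf, Uqcr, Atp5 or Cox4 to Cox8, together with Sdha, Sdhb, Sdhc, Sdhd, Cyc1 and Cycs. The Ndufaf assembly factors and symbols that contain -ps were left out. The rule took 88 of 23284 listed genes. They comprise 36 genes of complex I, 4 of complex II, 9 of complex III, 19 of complex IV, 15 of complex V, the electron carrier gene Cycs, and 4 genes that share a prefix but encode no subunit (Atp5s, Atp5sl, Cox4nb and Ndufa4l2). Ndufa4, named for complex I, was counted with complex IV, where its protein is now placed.

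Donor cells came from CAG-EGFP mice, whose CAG promoter drives EGFP in most cell types, and were LSK (Lin- Sca1+ c-Kit+), a marrow fraction rich in stem cells and early progenitors. Each wild-type recipient received 100000 of them, and 24 h later EGFP+ cells were sorted from its marrow mononuclear cells. Control recipients had no treatment, whereas 5-FU recipients had been given 5-fluorouracil (5-FU), a pyrimidine analog toxic to dividing cells, intravenously at 200 mg/kg 2 days before the transplant. Each group has 2 libraries, labelled as biological replicates and taken here as 1 recipient each. The p-values rest on the spread between the libraries of a group, pooled in part with the spread of other genes. Strain, sex and age are not stated in the labels, nor whether the donor cells were pooled.

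Values are FPKM (fragment counts scaled by transcript length and by library size). They are per length and can be set side by side between genes, though less surely where near-identical copies can split reads. The FPKM of each library summed to between 678222 and 762107, with the highest sum in 5-FU recipient 2. The label of the cells is hematopoietic stem and progenitor cells. Its markers were present, with a summed level over 12 HSPC genes of 790.2 and 699.2 FPKM in the control and 622.9 and 786.2 in the 5-FU libraries, but the 17 macrophage genes summed to 25742 and 30042 in the control and 22175 and 11666 in the 5-FU libraries. A bulk library cannot tell fewer cells of a type from less RNA per cell, so a difference below need not lie within progenitors.

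The respiratory chain passes electrons from NADH (complex I) and succinate (complex II) through ubiquinone to complex III, from there through cytochrome c to complex IV and oxygen, and the proton gradient that results drives ATP synthesis by complex V. Most subunits are encoded in the nucleus and imported, while a small set that includes catalytic subunits of complexes I, III, IV and V is encoded by mitochondrial DNA and is not analysed here. Quiescent hematopoietic stem cells are known for a low reliance on oxidative phosphorylation, which increases when they enter the cell cycle and differentiate. NRF1 and YY1 are DNA-binding factors known to act on many nuclear respiratory genes.

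The promoters of the members are shown first, since shared letters in them are what the choice by symbol did not use. RefSeq promoter sequences (GRCm38.p6, the build that mm10 corresponds to) cover 250 bases before to 50 bases after a gene's start, and 71 of the 88 members had one. Those without one included Atp5a1, Cox4i1, Cox4i2, Cox4nb, Cox6a2, Cox6c, Cox8c, Cyc1, Ndufa2, Ndufa4l2, Ndufb9, Ndufs1, Sdhc, Uqcrb, Uqcrc2 and Uqcrq. The NRF1 letters GCGCATGCG, searched on both strands, were in the promoters of 9 of the 71 members (12.7%), against 1.95% of all 27025 genes in the table and 4.35% of the 8255 of them that were tested for expression. The 9 matches follow, 5′ to 3′ on the gene's own strand, with the matched letters in capitals and up to 10 bases on either side. Matches in Atp5l, Cycs, Ndufa8 and Uqcr11 read CGCATGCGC, the same letters on the opposite strand.
Cycs, chr6:50566612-50566640, minus strand: catgctagctCGCATGCGCgcgcacaaac
Atp5k, chr5:108434431-108434459, minus strand: tttcactgcgGCGCATGCGcctttctggc
Atp5g2, chr15:102671071-102671099, minus strand: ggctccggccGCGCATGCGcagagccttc
Atp5l, chr9:44920965-44920992, minus strand: aaccaataaCGCATGCGCatttccccca
Cox6a1, chr5:115349102-115349130, minus strand: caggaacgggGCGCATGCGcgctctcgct
Ndufa11, chr17:56717692-56717720, plus strand: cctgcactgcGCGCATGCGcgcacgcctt
Ndufa8, chr2:36049329-36049357, minus strand: tcgctggagaCGCATGCGCagatggtacc
Uqcr11, chr10:80406808-80406836, minus strand: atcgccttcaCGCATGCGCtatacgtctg
Uqcrc1, chr9:108936668-108936696, plus strand: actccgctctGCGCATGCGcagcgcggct

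Of these matches, 7 lay wholly before the start, the first base of the farthest being 241 bases before it in Atp5l. The match of Uqcr11 began 5 bases before the start and spanned it, and that of Uqcrc1 began at base 31 after it. The match in Cycs began 61 bases before the start. The YY1 letters AAGATGGCG were in 8 of the 71 promoters (11.3%), against 1.64% of all and 3.78% of the tested genes. The Atp5j match lay 88 bases before its promoter's start. Those of Atp5j2, Ndufa9, Ndufc1, Ndufs4, Ndufs6 and Ndufs7 began 23 to 36 bases after theirs. For Atp5j and Ndufs7 that start lies within the gene span that RefSeq lists and not at its upstream edge. Atp5sl has more than 1 start in the table, and its match began 27 bases after or 53 bases before one. Of the 8 holders only Ndufs6 passed the expression test described next, and their log2 fold changes (5-FU minus control) ran from 0.32 to 1.02. The letters are printed in their settings for the holders with the highest fold changes, Ndufs6 and Ndufc1. Ndufc1 missed the test narrowly.
Ndufs6, chr13:73328433-73328459, minus strand: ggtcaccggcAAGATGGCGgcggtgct
Ndufc1, chr3:51408915-51408943, minus strand: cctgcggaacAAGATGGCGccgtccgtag

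The E-box CACGTG, the letters bound by MYC and other factors, was in 9.86% of member promoters, 8.09% of all and 12.3% of those tested. The GABP letters CCGGAAGTG were in 2.82% of member promoters, in Ndufs3 and Uqcrh, against 2.25% of all and 5.16% of those tested. A match is a description of letters and not of a bound site. The NRF1 and YY1 letters do not overlap each other.

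Most members had higher values in the cells from 5-FU recipients, by amounts that differed several-fold between genes and between complexes. Groups were compared with limma-trend on log2(FPKM + 1), with Benjamini-Hochberg adjustment over all 11496 genes at or above 1 FPKM in at least 2 libraries and a threshold of 0.05. Fold changes below are on that log2 scale, 5-FU minus control. Of the 88 members 84 were tested, 14 rose, 0 fell and 70 did not pass. The 14 are 16.7% of the tested members, where 8.23% of all genes tested rose and 4.67% fell. Without the adjustment, p was under 0.05 for 39 of the 84 as higher, against 16.9% of all genes tested, and for 1 as lower. The median over the tested members was 0.54, where the median over all genes tested was -0.015 and 20.5% of all genes tested lay above the members' median. The fold change was positive for 80 of 84 members, against 49.2% of all genes tested, and for 79 and 76 of them when the libraries were scaled to equal sums or by quantiles.

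In 68 of the 84 members both 5-FU libraries lay above both control libraries, or 81.0%, against 31.4% of all genes tested. In 3 members, Cox7a2l, Sdhc and Atp5s, both 5-FU libraries lay below both controls, where 30.7% of all genes tested did so. The members summed to 2.85% and 2.77% of all FPKM in the control libraries and to 3.62% and 4.25% in the 5-FU libraries. The level was highest in 5-FU recipient 2, which exceeded 5-FU recipient 1 in 77 of the 84 members with a median ratio of 1.32, whereas that library was the higher for 51.9% of all genes tested with a median ratio of 1.02. The controls were closer to each other, with a median ratio of control 2 to control 1 of 0.98.

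The number of calls changed when single libraries were left out. Without control replicate 1 no member rose (10 had an unadjusted p under 0.05), and without control replicate 2 only Ndufs5 did, a gene with unsteady values described below. Without 5-FU replicate 1 the number was 58, and without 5-FU replicate 2 it was 19. The share of all genes tested that rose moved with it, at 0.765% and 0.8% without control replicates 1 and 2 and at 18.5% and 9.08% without 5-FU replicates 1 and 2. Where 1 library was left in a group, it was assumed to vary like the other group. The 14 genes are all among the 58 and among the 19. The median log2 fold change of the members was 0.51 and 0.45 without control replicates 1 and 2, respectively, 0.71 without 5-FU replicate 1 and 0.32 without 5-FU replicate 2.

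**Figure D1:**
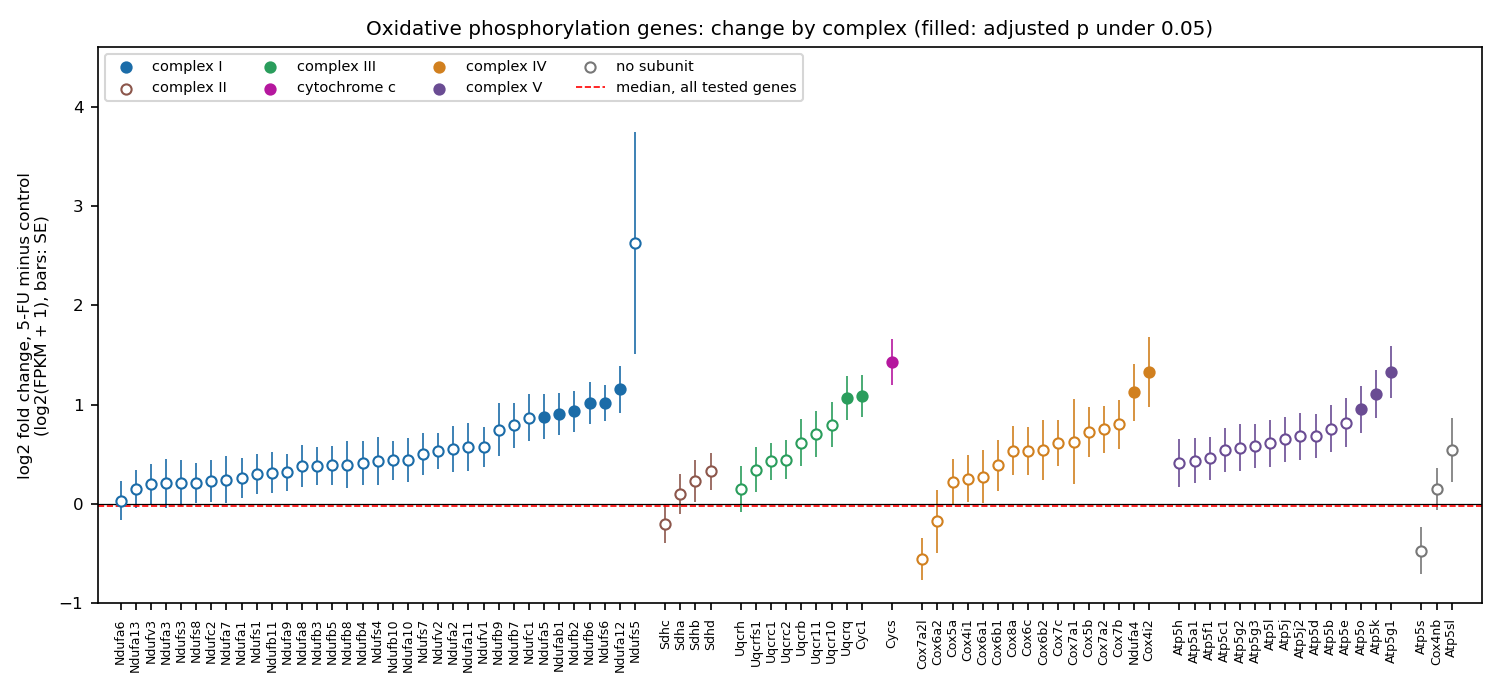
Log2 fold change (5-FU minus control, on log2(FPKM + 1)) of the tested genes by complex (1 gene of complex I is not drawn), with the SE as bars, filled points for the 14 past the threshold and the median of all genes tested as a dashed line. Complex II lies close to that line, Cycs has the highest value of the filled points, and Ndufs5 has the widest error.

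Other transcripts moved between the same groups. All 10 proliferation markers rose, from summed levels of 136.9 and 179.9 FPKM in the control to 627.0 and 815.9 in the 5-FU libraries. Of the 17 macrophage markers, 4 fell and 0 rose, with a median of -0.95, and their sum was lowest in 5-FU recipient 2, the library with the highest levels of respiratory genes. Granulocyte markers fell for 6 of 11, erythroid for 7 of 10 and B cell for 5 of 8 tested genes. Of 4 tested T and NK cell markers 1 rose and 0 fell, and of 11 tested HSPC markers 1 rose and 1 fell. Over all genes tested, 8.23% rose and 4.67% fell. No matched marker of these lists was listed at 0 in every library. The part of these shifts in the changes of respiratory genes was not tested.

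Complex I is the largest complex of the chain and takes electrons from NADH. Its 36 genes had a median of 0.42 and all were positive, against 49.2% of all genes tested. Of the 36, 6 rose (16.7%, against 8.23% of all genes tested) and 30 did not pass. The summed level went from 0.863% and 0.835% of all FPKM in the control libraries to 1.05% and 1.22% in the 5-FU libraries. All 6 genes that rose encode supernumerary subunits, which surround the catalytic core, out of 29 such genes. None of the 7 genes of core subunits, which carry the flavin, the iron-sulfur clusters and the quinone site, passed. Unadjusted limma-trend p was under 0.05 for 3 of them, all higher, where 16.9% of all genes tested were higher at that level. The medians were 0.43 for supernumerary and 0.30 for core subunits, and the difference between these groups was not tested.

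Ndufs6 encodes a zinc-binding subunit of the NADH-oxidizing arm. It had 97.6 and 95.0 FPKM in the control and 195.4 and 197.1 in the 5-FU libraries. The values differed by 1.02 (SE 0.18, adjusted p = 0.0175 in limma-trend), and the replicates of each group were nearly equal. Ndufa12, a subunit of the same arm, had 212.4 and 218.6 FPKM against 401.7 and 576.4, a difference of 1.16 (SE 0.24, limma-trend adjusted p = 0.024). Ndufab1 is the mitochondrial acyl carrier protein, which serves fatty acid and lipoate synthesis as well as complex I. Its level was 123.8 and 125.2 FPKM in the control libraries and 204.4 and 268.6 in the others.

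Subunits of the membrane arm that rose were Ndufb6, at 135.8 and 130.3 against 234.5 and 311.1 FPKM, and Ndufb2, at 136.5 and 130.9 against 224.9 and 291.7 FPKM. Ndufa5, a subunit of the quinone-reducing module, had 111.5 and 124.2 against 182.9 and 257.4 FPKM. Its call (limma-trend adjusted p = 0.0443) held under 7 of 14 alternatives and was lost, for example, with quantile scaling, at 0.0513. In each of these genes, picked for passing the threshold, the groups were apart, and 5-FU recipient 2 was the higher of its pair. The fold changes of Ndufb6, Ndufb2, Ndufab1 and Ndufa5 were 1.02, 0.93, 0.91 and 0.88. Ndufc1 came next, at 231.3 and 213.5 against 337.0 and 491.5 FPKM, and with 0.87 (limma-trend adjusted p = 0.0537) it did not pass.

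Among the core subunits, Ndufv1, which binds NADH and flavin, had 58.8 and 59.9 against 79.4 and 99.5 FPKM. Ndufv2 had 96.0 and 99.3 against 135.8 and 147.9 FPKM, with fold changes of 0.57 and 0.53 for these partners (limma-trend adjusted p = 0.0939 and 0.093). Ndufs7 differed by 0.50, from 163.3 and 157.8 to 198.1 and 261.9 FPKM. Lower fold changes were those of Ndufs1 at 0.30 and of Ndufs8 and Ndufs3 at 0.21. Ndufs3 overlapped between groups, with 103.1 and 88.3 against 92.6 and 131.9 FPKM, and without 5-FU replicate 2 its fold change was -0.043.

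The smallest difference in complex I was that of Ndufa6, at 311.1 and 280.4 FPKM in the control and 298.1 and 306.0 in the 5-FU libraries. It was 0.032 (SE 0.20, limma-trend adjusted p = 0.927), and -0.0496 with libraries scaled to equal sums. Ndufs5 had the largest fold change, 2.63, but with an SE of 1.12 and an adjusted p of 0.156 in limma-trend it did not pass. Its values were 0.0031 and 13.02 FPKM in the control and 10.999 and 43.7 in the 5-FU libraries, so they overlapped between groups and differed within each. Over the alternatives the fold change ran from 0.72 without control replicate 1 to 4.53 without control replicate 2. It passed in limma there (adjusted p = 0.0055), without 5-FU replicate 1 (0.0284) and with the replicate number as a block (0.00118). The level of Ndufs5 is therefore uncertain. RefSeq lists 1 pseudogene named for it, and 1 each for Ndufa12 and Ndufab1. The reads of near-identical copies can be split between genes, and whether this affected any of these levels was not tested. Apart from Ndufs5, levels in the control ranged from 19.7 FPKM for Ndufa11 to 639.5 for Ndufa3 (means, n = 2).

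**Figure D2:**
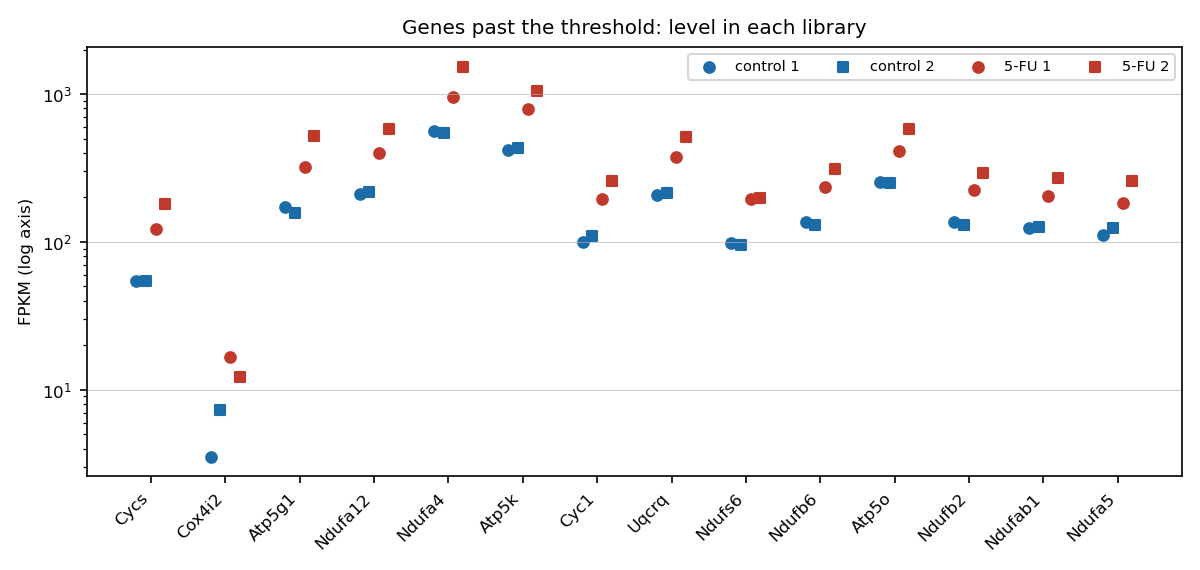
FPKM (log axis) in each of the 4 libraries for the 14 genes that rose, ordered by fold change. Both 5-FU libraries lie above both control libraries for every gene, which choosing genes past the threshold in these same libraries favors. The value of 5-FU recipient 2 is the higher of its pair for all but Cox4i2.

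Complex II, succinate dehydrogenase, is the 1 complex encoded wholly in the nucleus and is also an enzyme of the tricarboxylic acid cycle. None of its 4 genes passed and none had an unadjusted p under 0.05 in limma-trend. The median was 0.17, and 0.085 and 0.022 with libraries scaled to equal sums or by quantiles. Sdha, the flavoprotein, had 88.2 and 100.6 FPKM in the control and 113.7 and 89.8 in the 5-FU libraries. The groups overlapped, the fold change was 0.10 (SE 0.20), and it was -0.069 without 5-FU replicate 1 and -0.048 with quantile scaling.

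Sdhb, the iron-sulfur subunit, had 183.0 and 196.9 against 198.4 and 250.9 FPKM, a difference of 0.23. The membrane anchors went opposite ways in their values. Sdhc had 135.7 and 151.3 against 133.3 and 116.8 FPKM (-0.20, SE 0.19), and Sdhd had 147.0 and 131.4 against 166.7 and 183.1 (0.33, SE 0.19). The complex summed to 0.0814% and 0.0855% of all FPKM in the control and to 0.0902% and 0.0841% in the 5-FU libraries, ranges that overlap. Those of complexes I, III, IV and V did not.

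**Figure D3:**
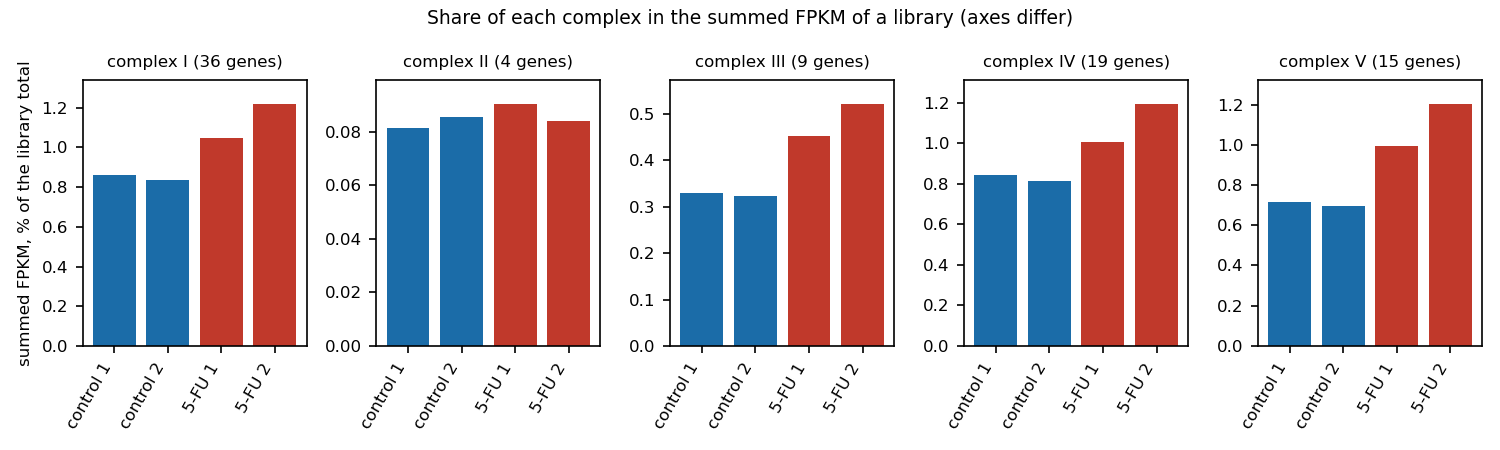
Summed FPKM of the genes of each complex as a percentage of all FPKM of the library, 1 bar per library, with a separate axis from 0 for each complex. In complexes I, III, IV and V both 5-FU bars are above both control bars, and in complex II the bar of 5-FU recipient 2 lies between the controls.

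Complex III passes electrons from ubiquinol to cytochrome c. Its 9 genes had a median of 0.62 and were all positive, against 49.2% of all genes tested. Of the 9, 2 rose (22.2%, against 8.23% of all genes tested) and 7 did not pass. Cyc1, cytochrome c1, the subunit that hands electrons to cytochrome c, had 99.4 and 110.2 FPKM in the control and 195.9 and 256.3 in the 5-FU libraries. The difference was 1.09 (SE 0.21, limma-trend adjusted p = 0.0209). Uqcrq, a small supernumerary subunit, had 206.3 and 212.7 against 376.7 and 514.0 FPKM, a difference of 1.07 (SE 0.23, limma-trend adjusted p = 0.0257).

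The Rieske iron-sulfur protein gene Uqcrfs1, the other nuclear catalytic subunit, had 119.9 and 131.1 against 133.1 and 191.6 FPKM. Its fold change was 0.35 (SE 0.23) and did not pass. Uqcrh was the lowest of the complex at 0.15, with 327.8 and 295.4 against 294.0 and 406.2 FPKM, and -0.082 without 5-FU replicate 2. The other 5 genes lay at 0.43 for Uqcrc1, 0.45 for Uqcrc2, 0.62 for Uqcrb, 0.71 for Uqcr11 and 0.80 for Uqcr10. In each of the 5, both 5-FU libraries lay above both controls, where 31.4% of all genes tested did so. RefSeq lists 2 pseudogenes named for Uqcrh.

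Cycs, on chromosome 6 at 50562563 to 50566569 (GRCm38.p6), encodes cytochrome c, which carries electrons from complex III to complex IV and triggers apoptosis when it leaves the mitochondrion. It had 54.7 and 54.1 FPKM in the control and 122.4 and 179.8 in the 5-FU libraries. The lower 5-FU value was 2.24 times the higher control value. The difference of 1.43 (SE 0.23, limma-trend adjusted p = 0.0145) was the highest among the members that passed, and 1.15 to 1.71 when single libraries were left out. RefSeq lists 3 pseudogenes named for Cycs. The 250 bases before its start, at chr6:50566570-50566819 on the minus strand, hold the NRF1 letters shown above, here in capitals within the whole stretch, which is given because this gene had the largest change that passed.
Cycs promoter: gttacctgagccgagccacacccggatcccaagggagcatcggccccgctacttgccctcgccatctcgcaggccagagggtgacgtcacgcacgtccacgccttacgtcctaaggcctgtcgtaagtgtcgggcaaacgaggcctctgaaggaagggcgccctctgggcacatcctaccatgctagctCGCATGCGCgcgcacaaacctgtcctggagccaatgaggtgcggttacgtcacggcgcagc

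Complex IV, cytochrome c oxidase, reduces oxygen. Of its 19 genes 16 were tested, of which 2 rose (12.5%, against 8.23% of all genes tested) and 14 did not pass. The median was 0.54, with a range from -0.55 to 1.33. Ndufa4, on chromosome 6 at 11900372 to 11907450, had 565.3 and 548.3 FPKM in the control and 959.7 and 1537 in the 5-FU libraries. The difference of 1.12 had an SE of 0.29 (limma-trend adjusted p = 0.0443), and the 5-FU libraries were well apart from each other.

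Several complex IV subunits exist as a general form and a form found mainly in certain tissues. Cox4i2, on chromosome 2 at 152753916 to 152765039, is the form of subunit 4 known from lung and from low oxygen. It had 3.51 and 7.24 FPKM in the control and 16.6 and 12.3 in the 5-FU libraries. The groups were apart and the difference was 1.33 (SE 0.35, limma-trend adjusted p = 0.0473), but the call held under 7 of 14 alternatives, over which the limma adjusted p ran from 0.0234 to 0.295. It was lost, for example, with the libraries scaled to equal sums, at 0.0778. The general form Cox4i1 had 688.5 and 632.9 against 715.0 and 868.5 FPKM, a difference of 0.26 that did not pass. Cox4i2 made up 0.507% and 1.13% of the FPKM of the pair in the control and 2.27% and 1.39% in the 5-FU libraries.

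The other tissue forms were low, and those tested did not pass. Cox6a2, a heart and skeletal muscle form, had 11.5 and 7.78 against 6.62 and 10.4 FPKM, where the general form Cox6a1 had 1250 and 1300 against 1405 and 1694, the highest level of any member. Cox6b2, a testis form, had 26.7 and 16.7 against 25.2 and 38.6 FPKM, and Cox6b1 had 448.0 and 464.0 against 493.3 and 724.7. In both pairs the tissue form overlapped between groups. Cox7a1, a muscle form, had 3.29 and 6.33 against 11.4 and 5.03 FPKM. The 3 forms that follow were not tested. Cox8b was listed at 0 in both controls and had 0.686 and 1.92 FPKM in the 5-FU libraries, Cox7b2 was above 0 in 5-FU recipient 2 alone, at 0.595, and Cox8c was listed at 0 in all 4 libraries. The general form Cox8a had 576.8 and 494.0 against 680.5 and 881.9 FPKM.

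Cox7a2l, on chromosome 17 at 83501917 to 83514333, encodes a relative of subunit 7a that joins complexes III and IV into supercomplexes. It had 158.4 and 174.0 FPKM in the control and 98.2 and 129.4 in the 5-FU libraries, the lowest fold change of all members at -0.55 (SE 0.21, limma-trend adjusted p = 0.118). It did not pass as reported, but did as lower with quantile scaling (adjusted p = 0.0461) and without 5-FU replicate 2 (adjusted p = 0.0126). Over these and the other alternatives tried the adjusted p ranged up to 0.575. Its paralog Cox7a2, the general form of subunit 7a, had 127.1 and 104.4 against 161.7 and 234.3 FPKM (0.75, limma-trend adjusted p = 0.0753). Cox7a2l made up 54.9% and 61.1% of the FPKM of the 3 genes of this group in the control and 36.2% and 35.1% in the 5-FU libraries.

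Of the remaining complex IV genes, the general subunits were all positive, against 49.2% of all genes tested. Cox5a was the lowest at 0.22, from 634.8 and 635.0 to 691.0 and 795.1 FPKM, and Cox7b the highest at 0.80, from 70.1 and 69.2 to 97.2 and 153.9. Cox6c, Cox7c and Cox5b lay between, at 0.54, 0.61 and 0.73, and none of the 5 passed. Both 5-FU libraries lay above both controls in each, where 31.4% of all genes tested did so.

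Complex V is the ATP synthase, in which the F1 head makes ATP and the membrane part Fo holds a rotating ring of c subunits. It was the most even of the large complexes. All 15 genes were positive, against 49.2% of all genes tested. Both 5-FU libraries lay above both controls in all 15, against 31.4% of all genes tested. The lowest fold change of the 15 was 0.41 (Atp5h), and the median was 0.65. Of these genes, 3 rose (20.0%, against 8.23% of all genes tested) and 12 did not pass. In limma-trend 12 of the 15 had an unadjusted p under 0.05, against 16.9% of all genes tested that were higher at that level. The complex summed to 0.715% and 0.694% of all FPKM in the control and to 0.996% and 1.20% in the 5-FU libraries.

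The catalytic subunits of F1 did not pass. Atp5b, the beta subunit, had 399.0 and 413.0 against 601.3 and 786.3 FPKM (0.76, limma-trend adjusted p = 0.0695), and Atp5a1, the alpha subunit, had 275.1 and 275.8 against 319.4 and 435.2 (0.44, limma-trend adjusted p = 0.229). Atp5o, part of the stalk that holds the head, rose from 256.0 and 251.6 to 415.3 and 584.6 FPKM (0.95). Atp5k, the small e subunit of Fo, rose from 417.9 and 428.8 to 790.1 and 1054 FPKM (1.11). RefSeq lists 4 pseudogenes named for Atp5k, and whether its level holds reads of copies was not tested.

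Subunit c comes from 3 genes whose precursors differ in the import sequence and yield the same mature protein. Atp5g1, on chromosome 11 at 96072793 to 96075694, had 171.1 and 155.7 FPKM in the control and 322.3 and 523.8 in the 5-FU libraries. It rose by 1.33 (SE 0.26, limma-trend adjusted p = 0.0225). Atp5g2 had 403.0 and 361.2 against 487.2 and 655.6 FPKM, and Atp5g3 had 283.0 and 273.4 against 361.3 and 483.1, with fold changes of 0.57 and 0.59 that did not pass. Atp5g1 was the lowest of the 3 in both control libraries, with 20.0% and 19.7% of their summed FPKM. It made up 27.5% and 31.5% in the 5-FU libraries, where it exceeded Atp5g3 in 5-FU recipient 2 but not in recipient 1. The difference between the 3 genes in fold change was not tested.

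**Figure D4:**
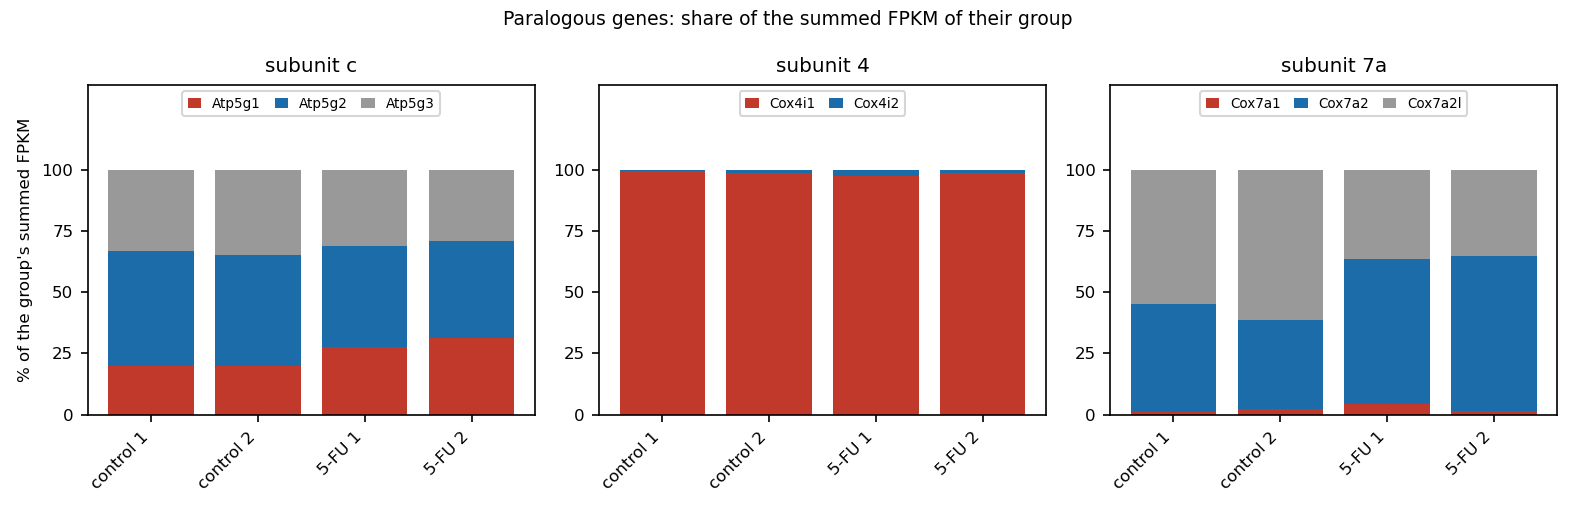
Share of each gene, in percent, of the summed FPKM of its group in each library, for the 3 subunit c genes, the 2 subunit 4 genes and the 3 genes of the subunit 7a group. Atp5g1 takes a larger share and Cox7a2l a smaller share in both 5-FU libraries than in either control, and Cox4i1 holds over 97.7% of its pair in every library.

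The 4 genes that share a prefix only did not pass. Atp5s (RefSeq symbol Dmac2l) had 12.6 and 12.3 against 8.93 and 8.50 FPKM, a fold change of -0.47 with the groups apart. Atp5sl (Dmac2) was at 0.54 with overlapping groups and Cox4nb (Emc8), a subunit of an endoplasmic reticulum membrane complex, at 0.15. Ndufa4l2 was above 0 in control recipient 1 alone and was not tested. Without these genes the members that rose were again 14, of 81 tested, and the median was 0.54.

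The promoter letters were then set beside the expression changes. Of the 11 genes that rose and had a promoter sequence, 2 held the NRF1 letters (Cycs and Atp5k), 1 the YY1 letters (Ndufs6) and 1 the E-box (Atp5g1). The 9 holders of the NRF1 letters had a median fold change of 0.57, from 0.27 for Cox6a1 to 1.43 for Cycs, and the members without them 0.52. For the YY1 letters the medians were 0.60 and 0.53. These are descriptions of few genes, with no test.

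Genes that assemble or serve the complexes were described from lists of related genes. Of 50 tested assembly factors of complexes I to V, 5 rose and 0 fell, a share near the 8.23% of all genes tested that rose, and the median was 0.33. For complex I, 4 of 15 rose, among them Ndufaf2, which escorts the NADH-oxidizing arm, from 23.995 and 27.9 to 54.2 and 82.9 FPKM, Ndufaf4, from 8.40 and 9.62 to 21.4 and 26.1, and Ecsit, from 13.01 and 10.9 to 27.3 and 26.1. For complex III the 1 of 6 that rose was Uqcc2, listed as 2900010M23Rik, from 159.7 and 159.3 to 315.1 and 423.0 FPKM. None of the 21 tested factors of complex IV, the 4 of complex II or the 4 of complex V passed in limma-trend. In these lists 3, 2 and 0 had an unadjusted p under 0.05, all higher, where 16.9% of all genes tested were higher at that level. In the list of ADP/ATP, phosphate, uncoupling and porin carriers 0 of 7 passed in limma-trend, and the median was 0.53. Of the 7, 5 higher and 1 lower had an unadjusted p under 0.05, where 16.9% of all genes tested were higher at that level. Slc25a5, the main ADP/ATP carrier here, had 974.6 and 979.7 against 1396 and 1847 FPKM (0.72, limma-trend adjusted p = 0.119).

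Of 12 ubiquinone genes 1 rose and 1 fell, where 8.23% of all genes tested rose and 4.67% fell. Pdss1, which takes part in making the tail of ubiquinone, rose from 4.20 and 2.63 to 17.9 and 20.2 FPKM. The difference was 2.204 (SE 0.29, limma-trend adjusted p = 0.00981). Adck3 (Coq8a), a kinase-like protein of the same pathway, fell from 12.2 and 9.35 to 2.97 and 2.36 FPKM, at -1.68. The other 10 of 12 genes did not pass, among them Pdss2 at -0.35, and the fold change was positive for 7 of the 12. Sqrdl, sulfide quinone oxidoreductase, which feeds electrons into ubiquinone, fell from 44.6 and 35.6 to 19.9 and 18.5 FPKM, and the other 5 of 6 such enzymes did not pass.

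Where 8.23% of all genes tested rose, 2 of 8 tested regulators of respiratory genes rose and 0 fell. They were Pprc1, a coactivator of the PGC-1 family, from 7.52 and 10.1 to 19.1 and 25.4 FPKM, and Myc, from 66.2 and 62.4 to 135.8 and 214.5. Nrf1 had 15.1 and 12.5 against 20.3 and 19.8 FPKM (0.52, limma-trend adjusted p = 0.164), Yy1 differed by 0.30 and Gabpa by -0.17, and none of these passed. Ppargc1a was under 0.5 FPKM in every library and was not tested. Of 11 genes that transcribe and maintain mitochondrial DNA 0 passed in limma-trend. Peo1 (Twnk) and Tfam, both higher, had an unadjusted p under 0.05. That is 2 of 11, near the 16.9% of all genes tested that were higher at that level. Tfam had 9.12 and 9.38 against 15.2 and 14.1 FPKM (0.61, adjusted p = 0.123).

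**Figure D5:**
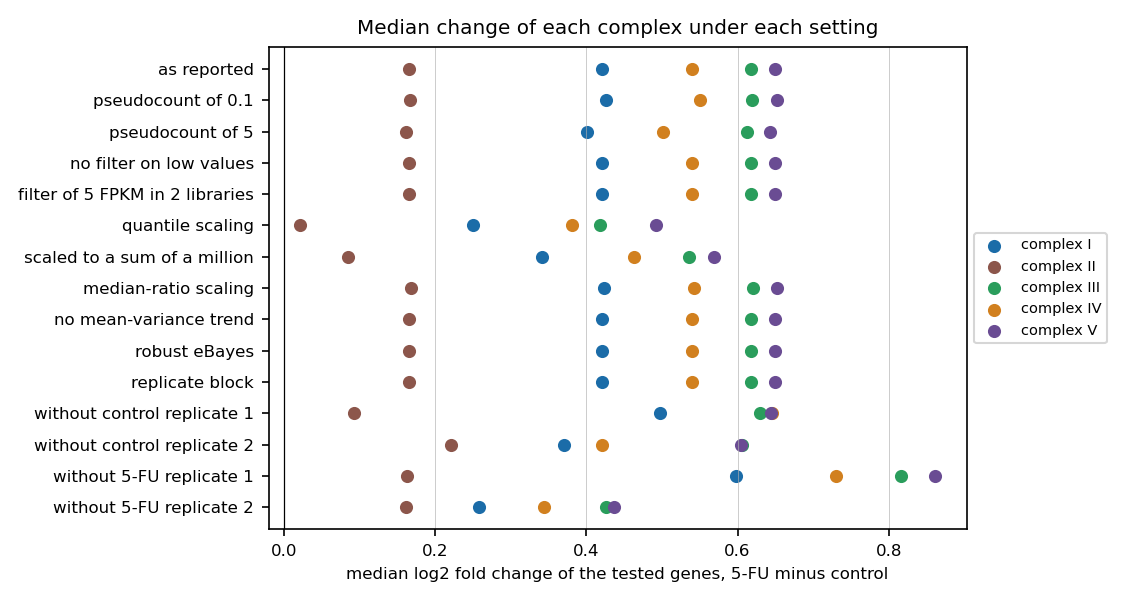
Median log2 fold change of the tested genes of complexes I to V, 1 point per complex, under the reported setting and each alternative. Complex II is the lowest in every setting shown, and the medians of complexes I, III, IV and V lie between 0.25 and 0.86.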

How the data were processed

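RNA-seq of 4 libraries (SMART-Seq Ultra Low Input kit, 75 bp single-end reads) was deposited as 1 table per library. Per the submitters' processing notes the tools were TopHat2 (2.0.13), Bowtie2 (2.2.3), SAMtools (0.1.19) and Cuffnorm (2.2.1), with the mm10 build, and the values the authors deposited are FPKM. Their annotation, normalization setting and depth were not given in the sources used here. Among genes under 0.3 FPKM, 1 read was worth 1.31, 1.26 and 1.07 times as much in control recipients 1 and 2 and 5-FU recipient 1 as in 5-FU recipient 2. Headers and names of the 5-FU tables carry different day numbers, and groups follow the labels.

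FPKM were used as deposited, with a pseudocount of 1 and a filter of 1 FPKM in 2 libraries. All 11496 genes that passed were fitted with limma 3.58.1 in R 4.3.3 (eBayes with trend, two-sided, 2 residual and 5.62 prior degrees of freedom), after a run on simulated data. An exact permutation test of 2 against 2 libraries cannot go below p = 0.333. The members, gene lists and tests were chosen with earlier results of these data known. Genes named are those past the threshold, the highest and lowest of each complex, catalytic and core subunits, paralog groups, and up to 3 genes of smallest p in a related list. A member that counts and medians include is not reported here singly. Other genes were named after their values were seen. Genes were assigned to complexes by hand from general knowledge. Results were recomputed with other pseudocounts (0.1 and 5), without a filter or with one at 5 FPKM, under 3 scalings, with robust eBayes, without the trend, with a replicate block and with each library left out. Related lists were matched by symbol or RefSeq synonym. Figures were drawn with matplotlib 3.10.9.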

Additional observations from a re-analysis of the deposited data

How the results depend on the processing

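The number of members that rose, 14 as reported, was 0 with no filter on low values (37 had an unadjusted p under 0.05), where 3 genes of the whole table rose, 4 without a mean-variance trend (Atp5g1, Atp5k, Cycs and Ndufs6), where 548 of all genes rose against 946 as reported, and 0 to 58 when single libraries were left out. It stayed within 12 to 17 under the other pseudocounts, the stricter filter, the scalings, robust eBayes and the list of subunits only. Over these settings the share of all genes tested that rose ran from 6.75% to 11.9%. The lowest share was with equal sums, where 13 members rose, and the highest with the stricter filter, where 17 rose. The number that fell, 0 as reported, was 1 with quantile scaling and 0 to 1 when single libraries were left out, in each case Cox7a2l. The members' median of 0.54 ranged from 0.32 to 0.71 with single libraries left out and was 0.35 with quantile scaling. Replicate numbers occur in both groups and pair nothing the labels name. With the replicate number as a block 9 members rose, 8 of them among the 14 and the other Ndufs5 (855 of all genes), and the deviations of same-numbered libraries from their group means correlated at -0.16 across genes. With the numbers crossed, an alternative chosen after seeing the data, 34 rose and 1 fell (1686 and 1365 of all genes). The direction of 5 named genes that did not pass turned under some setting. With quantile scaling Ndufa6 was at -0.091 and Sdha at -0.048, and with equal sums Ndufa6 was at -0.0496. With single libraries left out, Ndufa6 ranged from -0.043 to 0.107, Sdha from -0.069 to 0.269, Cox6a2 from -0.46 to 0.12, Ndufs3 from -0.043 to 0.46 and Uqcrh from -0.082 to 0.38. The cause of these changes was not tested. With 2 libraries a group, a p that misses the threshold does not show that a gene did not differ.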
